A study of Rattus norvegicus with 8 samples.

Results

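The Il6 cytokine family signals through the shared receptor chain gp130, and 10 genes of this circuit were followed in the Achilles tendon of the rat. They were the ligand genes Il6, Lif and Il11, the receptor genes Il6r, Il6st, Osmr and Lifr, the transcription factor gene Stat3, and the feedback genes Socs3 and Socs1. Members were listed by gene symbol, with earlier results of these data known, and each had 1 row among the 15590 genes of the table. Polyadenylated RNA was sequenced from the right Achilles tendons of wild-type (WT) male SD rats of the same age range. The 4 libraries of the 0 h p.r. (post-run) group came from rats killed immediately after running uphill on a treadmill for 1 h, and the 4 libraries of the naïve control (NC) group came from rats kept at normal activity. Blown air, and a weak current for rats that left the belt, kept the animals running, so the run and its prompting cannot be told apart in these groups. The sample titles have the 0 h p.r. rats killed immediately and give no time for the controls. The methods of the running experiment have its cage controls killed with a later post-run group. A difference in time of day between the groups therefore cannot be told apart from the run either. The labels list separate samples without saying more of their origin, and the p-values measure the spread between these samples.

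Ligands of the family signal through complexes of gp130, the product of Il6st, with chains that differ between ligands. Il6r binds interleukin 6, Lifr binds leukemia inhibitory factor, and Osmr pairs with gp130 to bind oncostatin M. The chains carry Janus kinases that phosphorylate STAT3, which enters the nucleus and switches on its targets. Socs3 and Socs1 are among those targets, and their proteins block the receptors and kinases in turn, closing a feedback loop. Interleukin 6 is known for its release from contracting muscle and for its presence around loaded tendon.

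Values are FPKM, fragments scaled to gene length and to a size factor of each library, so levels can be compared between genes as well as between libraries. Fold changes were fitted with limma on log2(FPKM + 0.5) and are given as 0 h p.r. minus NC, and p-values were adjusted over all 13863 genes tested. A gene is said to have risen or fallen where its adjusted p was under 0.05, and it was past both thresholds where its fold was also at least 2. Whole reads behind the values ranged from 10660131 to 17464752 per library. NC replicate 2 stood apart, with 31.1% of its FPKM in 13 mitochondrial genes against 16.3% to 21.9% in the other libraries. It was also the lowest NC library for 9 of the 10 members, all except Socs1. Markers of tenocytes were present in both groups, with rows for 8 of 8 genes. Their summed level was 3777 to 7451 FPKM in NC and 4154 to 7450 FPKM in 0 h p.r. Single markers differed in level, and Mkx had means of 9.78 FPKM in NC and 8.51 FPKM in 0 h p.r. Comp was higher in 0 h p.r. without overlap (means 848 and 1395 FPKM, limma adjusted p = 0.167).

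The promoters of 3 members that rose hold short motifs of the factors that this circuit and stress signalling use, and they are shown for that reason. RefSeq windows on the build GRCr8 were matched to 9 of the 10 members by symbol, and the 250 bases before each start were searched on both strands. The letters searched were TTCNNNGAA for STAT factors, TGANTCA for AP-1, TGACGTCA for the cAMP response element, and, for NF-kB, GGG and TTCC separated by 3 bases of any kind. Capitals mark the matches, each line reads 5′ to 3′ on the strand of the gene, and the last base lies next to the annotated start. The windows are chr4:5894576-5894825 on the minus strand for Il6, chr2:57688562-57688811 on the minus strand for Osmr and chr10:5389324-5389573 on the plus strand for Socs1.
Il6: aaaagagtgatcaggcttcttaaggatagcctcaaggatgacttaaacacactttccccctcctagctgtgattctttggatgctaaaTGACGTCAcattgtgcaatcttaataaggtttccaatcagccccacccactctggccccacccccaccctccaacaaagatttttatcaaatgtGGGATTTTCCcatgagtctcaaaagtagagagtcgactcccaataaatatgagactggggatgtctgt
Osmr: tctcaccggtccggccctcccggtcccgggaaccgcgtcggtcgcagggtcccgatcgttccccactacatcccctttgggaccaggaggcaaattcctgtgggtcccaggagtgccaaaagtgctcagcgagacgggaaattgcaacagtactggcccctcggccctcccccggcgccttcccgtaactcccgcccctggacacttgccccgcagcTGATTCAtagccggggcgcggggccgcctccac
Socs1: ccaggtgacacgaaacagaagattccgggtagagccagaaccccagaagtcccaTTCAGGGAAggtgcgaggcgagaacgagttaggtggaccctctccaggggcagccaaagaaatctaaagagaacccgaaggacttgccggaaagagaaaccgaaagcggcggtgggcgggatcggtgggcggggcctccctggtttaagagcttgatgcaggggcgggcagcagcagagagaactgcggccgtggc
The window of Il6 held the cAMP response element letters 162 to 155 bases before the start and the NF-kB letters 68 to 59 bases before it. That of Osmr held an AP-1 match 33 to 27 bases before its start, and that of Socs1 a STAT match 196 to 188 bases before its start. No match overlapped another. Il11 also held an AP-1 match, TGAGTCA, 142 to 136 bases before its start, and the other 5 windows, those of Il6r, Il6st, Lifr, Socs3 and Stat3, held none of the letters. Among all 33469 windows of the table, the letters for STAT were found in 7.67%, for AP-1 in 6.34%, for the cAMP response element in 1.59% and for NF-kB in 4.53%. A match describes the letters in this stretch only, and the window of a gene without one says nothing of the factor.

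The ligand gene Il6 went from a level near 0 to one among the better expressed genes of the tendon. Il6 (ENSRNOG00000010278) had 0.161, 0, 0.326 and 0.0643 FPKM in NC replicates 1 to 4 and 35.1, 36.9, 42.8 and 10.4 FPKM in 0 h p.r. replicates 1 to 4. The groups did not overlap, and replicate 4 was the low library of the 0 h p.r. group. The mean rose from 0.138 ± 0.142 to 31.3 ± 14.3 FPKM (SD, n = 4 each), a ratio of 227. On the log2 scale the rise was 5.49 (SE 0.41, 95% interval 4.57 to 6.41), with a limma adjusted p of 0.000360. Ranked among all genes by mean level, Il6 moved from percentile 2.51 in NC to percentile 84.6 in 0 h p.r.

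The NC level of Il6 rested on few reads. The NC libraries held 3, 0, 5 and 1 reads of it, and the 0 h p.r. libraries held 488, 700, 573 and 196. Over the groups this made 9 against 1957 reads, a ratio of 199.7 once set against the library sizes, with an exact binomial 95% interval of 105.0 to 437. A count of 0, as in NC replicate 2, allows up to 3 reads or 0.290 FPKM there, which is still under the lowest 0 h p.r. library. Intervals and limits of this kind cover counting error only. Il6 met the minimum for testing, 0.5 FPKM in 4 of the 8 libraries, only through its 0 h p.r. libraries. The log2 value depends on the constant added before the logarithm, and was 7.06 with 0.1 and 4.67 with 1 in place of 0.5.

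The other ligands, Lif and Il11, stayed at low levels. Lif (ENSRNOG00000007002), the gene of leukemia inhibitory factor, had 0.126, 0, 0.337 and 0.483 FPKM in NC and 0.845, 0.916, 0.245 and 0.647 FPKM in 0 h p.r. Replicate 3 of 0 h p.r. lay among the NC libraries while the other 3 lay above them all. Il11 (ENSRNOG00000017386), the gene of interleukin 11, had 0.333, 0.119, 0.242 and 0.318 FPKM in NC and 0.133, 0.587, 0.554 and 1.34 FPKM in 0 h p.r. Replicate 1 of 0 h p.r. lay among the NC libraries, and replicate 4, the lowest 0 h p.r. library for Il6, was the highest for Il11.

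Both genes were under the minimum level for testing. The means were 0.237 ± 0.215 and 0.663 ± 0.301 FPKM for Lif, and 0.253 ± 0.0975 and 0.654 ± 0.503 FPKM for Il11 (SD, n = 4 each). Without the minimum, the limma adjusted p was 0.188 for Lif and 0.335 for Il11, so neither difference was larger than the spread between libraries by that test. Summed reads were 32 against 95 for Lif, a ratio of 2.73 (interval 1.81 to 4.21), and 26 against 74 for Il11, a ratio of 2.61 (interval 1.65 to 4.26). These intervals compare the reads of the libraries and leave out the spread between rats. A change of the size seen in Il6 was outside both intervals.

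**Figure D1:**
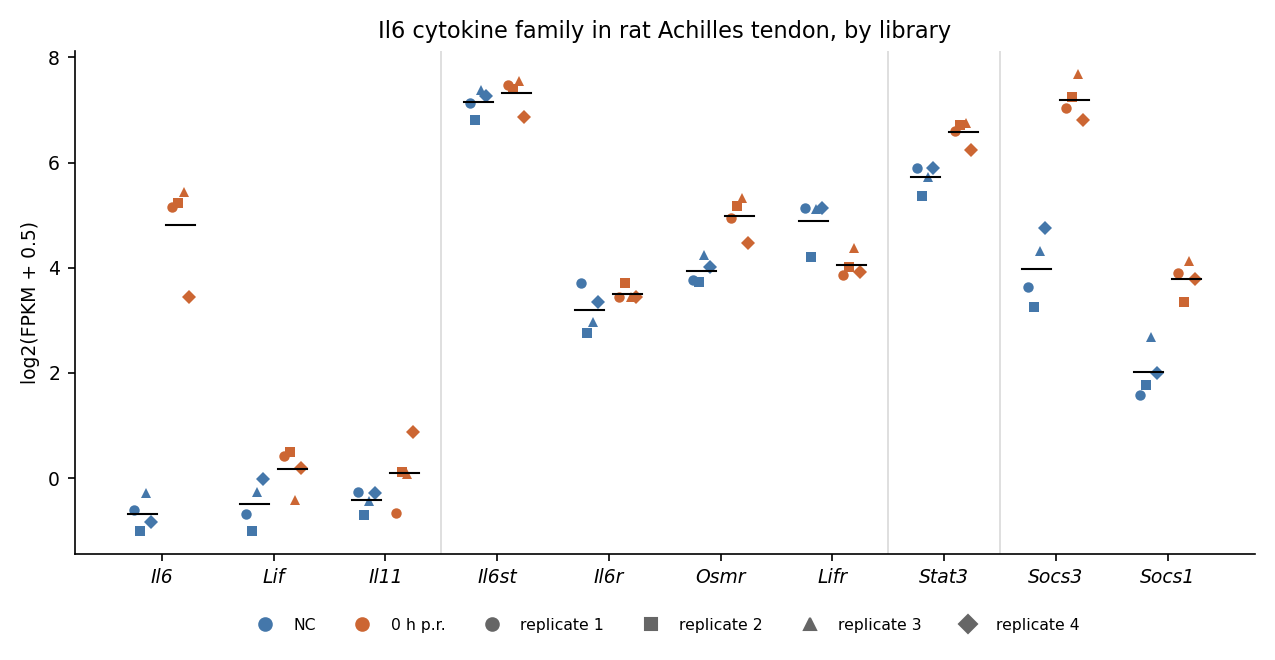
Levels of the 10 members as log2(FPKM + 0.5) on the vertical axis, 1 symbol per library (blue NC, orange 0 h p.r., shape by replicate number), with a black line at the mean of each group. Il6, Osmr, Stat3, Socs3 and Socs1 have groups that do not overlap, and Lifr is lower in 0 h p.r. except that NC replicate 2, at 17.9 FPKM, lies under the highest 0 h p.r. library at 20.2 FPKM.

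Among the 4 receptor chains, Osmr rose and the other 3 did not pass the test. Osmr (ENSRNOG00000033192), the chain that serves oncostatin M, had 13.1, 12.7, 18.4 and 15.7 FPKM in NC and 30.5, 35.6, 39.9 and 21.8 FPKM in 0 h p.r. Every 0 h p.r. value exceeded every NC value. Its mean rose from 15.0 ± 2.65 to 31.9 ± 7.78 FPKM (SD, n = 4 each), a ratio of 2.13, and by 1.05 on the log2 scale (SE 0.20, 95% interval 0.60 to 1.50) with a limma adjusted p of 0.0218. The call sat close to both thresholds. In the 8 leave-one-out fits, each without 1 library, Osmr missed at least 1 threshold in 5, namely without NC replicate 1, NC replicate 2 or 0 h p.r. replicate 1, 2 or 3, with log2 values of 0.93 to 1.22 and an adjusted p that peaked at 0.0806 when 0 h p.r. replicate 2 was omitted.

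Lifr (ENSRNOG00000011696), the chain for leukemia inhibitory factor, had 34.5, 17.9, 34.0 and 34.7 FPKM in NC and 14.1, 15.7, 20.2 and 14.6 FPKM in 0 h p.r. NC replicate 2 lay with the 0 h p.r. libraries, and the other 3 NC libraries lay between 34.0 and 34.7 FPKM. The means were 30.3 ± 8.23 FPKM in NC and 16.2 ± 2.80 FPKM in 0 h p.r. (SD, n = 4 each). The log2 difference was -0.85 (SE 0.23, 95% interval -1.36 to -0.34), and its limma adjusted p of 0.0610 missed the threshold. Without NC replicate 2 the difference was -1.08 with an adjusted p of 0.00990, past both thresholds. Leaving out NC replicate 1 instead gave an adjusted p of 0.162.

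Transcripts of the subunits that interleukin 6 itself uses were present at similar levels in both groups. Il6st (ENSRNOG00000013963), which encodes gp130, had 139, 111, 166 and 154 FPKM in NC and 177, 168, 187 and 117 FPKM in 0 h p.r. Its groups overlapped, with a log2 difference of 0.18 (95% interval -0.25 to 0.60, adjusted p = 0.645). Il6r (ENSRNOG00000020811), the binding chain of interleukin 6, had 12.5, 6.24, 7.31 and 9.75 FPKM in NC and 10.3, 12.6, 10.4 and 10.4 FPKM in 0 h p.r. Its groups overlapped too, with a log2 difference of 0.32 (95% interval -0.14 to 0.77, adjusted p = 0.408). Both intervals lie under a doubling, but neither test shows that the levels were equal.

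Set against each other within a library, the chains changed their order. The ratio of Osmr to Lifr in FPKM was 0.380, 0.707, 0.541 and 0.453 in NC and 2.16, 2.27, 1.97 and 1.49 in 0 h p.r. Lifr was thus above Osmr in every NC library and Osmr above Lifr in every 0 h p.r. library, a pairing chosen after its values were seen and given without a test. Il6st exceeded Osmr by 8.76 to 10.6 times in NC and 4.70 to 5.80 times in 0 h p.r., and exceeded Il6r by 11.1 to 22.8 times in NC and 11.2 to 18.0 times in 0 h p.r. In all 8 libraries Il6st thus had the highest transcript level of the 4 receptor genes, and levels of the proteins were not measured.

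**Figure D2:**
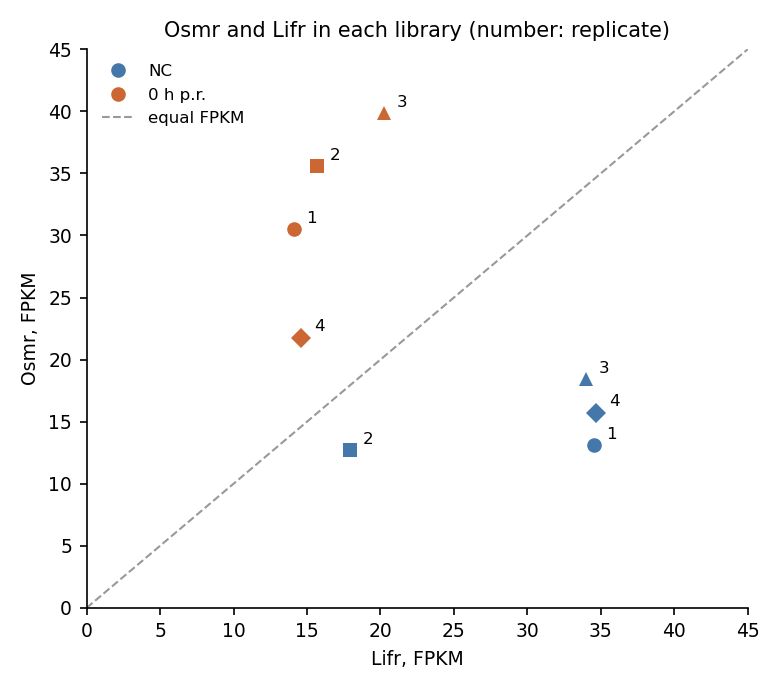
Osmr (vertical axis, FPKM) against Lifr (horizontal axis, FPKM) in each library, numbered by replicate, with a dashed line where they are equal. The 4 NC libraries lie under the line, with ratios of 0.380 to 0.707, and the 4 libraries of 0 h p.r. lie above it, with ratios of 1.49 to 2.27.

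Downstream of the receptors, Stat3 (ENSRNOG00000019742), the main transcription factor of the pathway, was already high in NC and rose after the run. It had 58.9, 40.4, 52.4 and 59.1 FPKM in NC and 97.0, 104, 107 and 74.8 FPKM in 0 h p.r. The groups did not overlap, with NC replicate 2 and 0 h p.r. replicate 4 the lowest of their groups. The mean rose from 52.7 ± 8.76 to 95.6 ± 14.5 FPKM (SD, n = 4 each), a ratio of 1.81, and by 0.86 on the log2 scale (SE 0.17, 95% interval 0.48 to 1.23) with a limma adjusted p of 0.0232, which left it under the fold threshold. In 5 of the 8 leave-one-out fits the adjusted p was over 0.05, with a maximum of 0.0844 when 0 h p.r. replicate 2 was omitted, and it was 0.0543 after quantile normalization. These are levels of the transcript, and phosphorylation of the protein was not measured.

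Socs3 (ENSRNOG00000002946), whose protein binds gp130 and the Janus kinases, had the largest rise among the members after Il6. It had 11.9, 9.01, 19.3 and 26.5 FPKM in NC and 131, 150, 206 and 111 FPKM in 0 h p.r. The lowest 0 h p.r. library was far above the highest NC library, and replicate 4 was again the low one of its group. The mean rose from 16.7 ± 7.85 to 149.6 ± 40.9 FPKM (SD, n = 4 each), a ratio of 8.98, and by 3.21 on the log2 scale (SE 0.33, 95% interval 2.47 to 3.94) with a limma adjusted p of 0.00151. Its rank moved from percentile 73.4 to percentile 97.0, next to that of Il6st at 97.2. It stayed past both thresholds in all 8 leave-one-out fits, with log2 values of 2.96 to 3.46.

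Socs1 (ENSRNOG00000002568), which blocks the kinases of interferon and cytokine receptors, had 2.48, 2.93, 5.94 and 3.49 FPKM in NC and 14.5, 9.70, 17.0 and 13.4 FPKM in 0 h p.r. The groups did not overlap, and replicate 3 was the highest of each. The mean rose from 3.71 ± 1.54 to 13.6 ± 3.02 FPKM (SD, n = 4 each), a ratio of 3.67, and by 1.79 on the log2 scale (SE 0.26, 95% interval 1.21 to 2.36) with a limma adjusted p of 0.00698. This call too held in all 8 leave-one-out fits, with log2 values of 1.64 to 2.01.

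Over the list, 4 of the 8 members tested were past both thresholds upward (Il6, Osmr, Socs3 and Socs1) and 0 downward, beside 1.8% upward and 0.894% downward of all genes tested. At an adjusted p under 0.05 and any fold, 5 were higher, Stat3 being the addition, and 0 lower, beside 3.49% and 2.23% of all genes tested. On the lower side, Lifr had an unadjusted limma p of 0.00426, which did not pass after adjustment. Voom on the recovered reads likewise called 0 members lower. The same 5 had groups that did not overlap, all higher in 0 h p.r., where 8.15% of genes tested were higher and 7.47% lower without overlap. The exact permutation test, two-sided and over all ways to divide the libraries, gave each of these 5 p = 0.0286, the smallest possible at this size. Groups that do not overlap always give this value, so the permutation test adds nothing for them. The median log2 difference of the members tested was 0.95, beside -0.0014 for all genes tested. Il6 entered these counts through its 0 h p.r. libraries alone, and Lif and Il11 are in none of them.

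The order of levels changed with these differences. In NC, Il6st led at a mean of 143 FPKM, followed by Stat3, then Lifr, Socs3 and Osmr, whose ranges overlapped from 1 to the next, then Il6r, Socs1 and the 3 ligands near 0. In 0 h p.r., Il6st at 162 FPKM and Socs3 at 149.6 FPKM overlapped at the top. Stat3 came next, and Osmr, Il6, Lifr, Socs1 and Il6r then formed a run in which each overlapped its neighbour. Lif and Il11 lay below all of these without overlap with Il6r, and overlapped each other. The libraries of 0 h p.r. also kept an order of their own, with replicate 3 the highest for 7 members and replicate 4 the lowest for 5, which were Il6, Il6st, Osmr, Socs3 and Stat3.

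The other genes of the circuit were described from lists of 64 further genes. Rows were found for 58 and 55 passed the minimum for testing. Of these, 12 were past both thresholds upward and 0 downward, 18 rose and 0 fell at any fold, and the median log2 difference was 0.25. All genes tested had 1.8% and 0.894% past both thresholds upward and downward, 3.49% and 2.23% higher and lower at any fold, and a median of -0.0014. Voom on the recovered reads also called 0 of them lower at an adjusted p under 0.05. A count of 0 does not show that no gene was lower. Of the 9 gp130 ligands in the list, Il27 had no row and 4 were tested. Among the tested, Il6 was the single one to rise, and it met the minimum only through its 0 h p.r. libraries. The untested ligands with a row had ratios of mean FPKM, 0 h p.r. over NC, of 2.02 to 2.80 at low levels, so the count does not cover them. Clcf1, a ligand of the ciliary neurotrophic factor receptor, went from 1.29 ± 0.370 to 2.59 ± 0.593 FPKM without overlap, but its adjusted p was 0.0661, and it was under 0.05 with quantile normalization (0.0465) and with array weights (0.0241). Osm, the ligand gene of the chain that Osmr encodes, was not tested, with 0.153 ± 0.109 FPKM in NC and 0.373 ± 0.102 FPKM in 0 h p.r.

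Of 6 receptor chains tested, Osmr was the single one to rise and 0 fell, beside 3.49% and 2.23% of all genes tested. Il11ra1, the chain for interleukin 11, was at 76.1 ± 14.5 and 67.8 ± 12.8 FPKM (log2 difference -0.16, adjusted p = 0.680), a level well above that of its ligand. Cntfr, the chain for ciliary neurotrophic factor, was at 52.4 ± 13.7 and 33.8 ± 8.84 FPKM (-0.62, adjusted p = 0.187). Among 10 kinase and STAT genes tested, Stat3 was the single one to rise, against the same 3.49%. Jak2, a kinase that the receptors carry, went from 11.0 ± 1.83 to 15.4 ± 2.23 FPKM without overlap, with an adjusted p of 0.113. Stat5a, of the same list, went the other way, from 6.09 ± 0.575 to 4.39 ± 0.215 FPKM without overlap. Its log2 difference was -0.43, with a limma adjusted p of 0.0678. The sheddase genes Adam10 and Adam17, whose proteins release soluble interleukin 6 receptor from cells, had log2 differences of -0.29 (adjusted p = 0.144) and -0.09 (adjusted p = 0.752). The groups of Adam10 did not overlap, at 30.4 to 37.4 FPKM in NC and 25.1 to 27.8 FPKM in 0 h p.r.

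All 8 genes of the SOCS family had log2 differences above 0, with a median of 0.65, and 4 of the 8 rose, beside 3.49% of all genes tested and their median of -0.0014. Beside Socs3 and Socs1 these were Socs5, from 12.4 ± 1.86 to 23.3 ± 2.57 FPKM (0.88, adjusted p = 0.0108), and Socs2, from 21.3 ± 6.32 to 39.3 ± 4.87 FPKM (0.90, adjusted p = 0.0327). Socs2, known as a brake on growth hormone signalling, had an adjusted p over 0.05 in 6 of the 8 leave-one-out fits, and Socs5 in 0. Of 8 other inhibitors, 2 rose, against the same 3.49%, and these were the phosphatase genes Ptpn1 and Ptpn2, by 0.84 (adjusted p = 0.0368) and 0.70 (adjusted p = 0.0290), and each lost that call in 7 of the 8 leave-one-out fits. The genes of the PIAS proteins, which restrain STAT factors, did not pass the test.

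Regulators of Il6 itself rose beside it, in 4 of the 7 genes on that list, with a median log2 difference of 1.36, and all 4 were past both thresholds, beside 1.8% of all genes tested upward and their median of -0.0014. Zfp36, whose protein destabilises AU-rich transcripts, rose from 50.4 ± 5.81 to 217 ± 48.6 FPKM (2.08, adjusted p = 0.000886). Zc3h12a, the gene of the ribonuclease regnase-1 that cleaves Il6 transcripts, rose from 3.60 ± 0.898 to 9.82 ± 1.07 FPKM (1.36, adjusted p = 0.00518). Arid5a, whose protein protects Il6 transcripts from decay, rose from 11.1 ± 2.71 to 46.8 ± 2.99 FPKM (2.05, adjusted p = 0.000543). Nfkbiz, an NF-kB cofactor used at the Il6 promoter, rose from 3.61 ± 0.696 to 16.2 ± 3.58 FPKM (2.02, adjusted p = 0.000947). Genes whose products shorten and genes whose products prolong the life of Il6 transcripts were thus among those that rose.

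Of 22 textbook targets of STAT3, 18 were tested, 10 rose, 8 of them past both thresholds, 0 fell, and the median log2 difference was 1.03, where 3.49% of all genes tested rose, 1.8% were past both thresholds upward and the median was -0.0014. Genes of transcription regulators had the 5 largest rises. Junb, an AP-1 subunit, rose from 41.7 ± 9.01 to 306 ± 18.8 FPKM (2.88, adjusted p = 9.7e-05), and Bcl3, an atypical IkB protein, from 6.36 ± 1.26 to 30.1 ± 11.6 FPKM (2.08, adjusted p = 0.00698). Myc rose by 1.87 (adjusted p = 0.00181), and the C/EBP factors of the acute phase response, Cebpd and Cebpb, rose by 1.79 (adjusted p = 0.00205) and 1.57 (adjusted p = 0.000299). Hif1a, the hypoxia factor, rose by 1.11 (adjusted p = 0.00343) and Icam1, an adhesion molecule of vessels, by 1.07 (adjusted p = 0.00698). Many of these genes also answer to other signals, and the list was not read as a measure of STAT3 activity.

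The remaining target past both thresholds was Timp1, the inhibitor of matrix metalloproteinases, at 79.2 ± 19.4 and 184 ± 50.0 FPKM (1.20, adjusted p = 0.0320). It lost the call in 5 of the 8 leave-one-out fits, where omitting 0 h p.r. replicate 2 gave the highest adjusted p, 0.104. Pim1, a kinase gene, and Il4r, a receptor gene for interleukin 4, rose under the fold threshold, by 0.99 (adjusted p = 0.00689) and 0.85 (adjusted p = 0.00698). The acute phase gene Lbp had a log2 difference of 1.72 with an adjusted p of 0.0677. Targets in the same list that did not pass the test included the cell cycle gene Ccnd1 (-0.42, adjusted p = 0.107) and the survival gene Bcl2l1 (-0.03, adjusted p = 0.943).

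**Figure D3:**
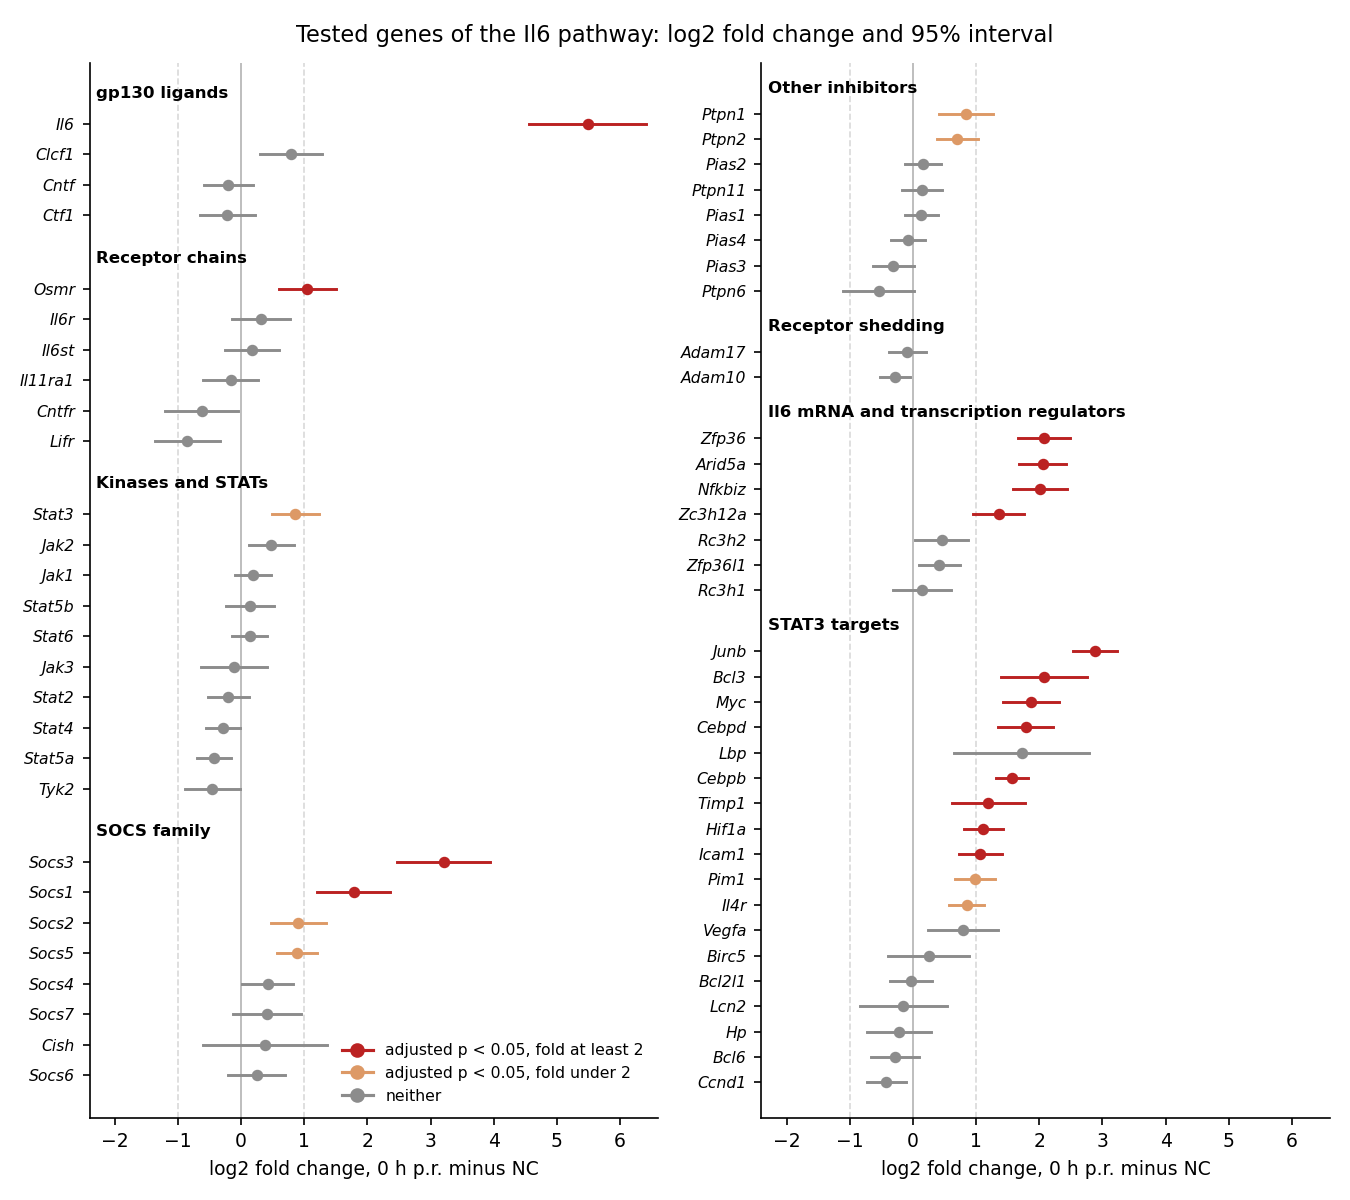
Log2 fold change (horizontal axis, 0 h p.r. minus NC, on log2(FPKM + 0.5)) with its 95% interval for each tested gene of the circuit, grouped by role. Red marks an adjusted p under 0.05 with a fold of at least 2, light orange an adjusted p under 0.05 with a smaller fold, and grey neither, and Il6 at 5.49, Socs3 at 3.21 and Junb at 2.88 lie farthest to the right.

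Because whole tendon was sequenced, fewer cells of a type and less RNA per cell cannot be told apart in any of these values. Adipocyte markers moved with the groups. All 6 of 6 were lower in 0 h p.r., 4 of them past both thresholds, beside 0.894% of all genes tested past both downward. Their summed level was 2378 to 4396 FPKM in NC and 780 to 1726 FPKM in 0 h p.r. without overlap. Of all genes tested, 7.47% were singly lower without overlap. Their part in the level of Lifr or of any other member was not tested. Skeletal muscle markers, with rows for 7 of 9 genes, summed to 4303 to 6269 FPKM in NC and to 28138, 4861, 13280 and 864 FPKM in 0 h p.r. replicates 1 to 4. Replicate 2, whose muscle marker sum lay inside the NC range, had 36.9 FPKM of Il6 and 150 FPKM of Socs3. Replicate 4, with the lowest sum of all libraries, had 10.4 and 111 FPKM. Single markers did not all follow the sum. In 0 h p.r. replicate 2, Actn3 was above its NC range (367 against 16.2 to 277 FPKM). Acta1 was below its own there (1947 against 2092 to 2817 FPKM). In 0 h p.r. replicate 4, Actn3 was at 41.5 FPKM, above the 16.2 FPKM of NC replicate 1. The part of muscle in the level of any member was not tested.

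Summed markers of blood, vessel and nerve cells overlapped between the groups. The 7 macrophage markers summed to 123 to 207 FPKM in NC and 106 to 205 FPKM in 0 h p.r., and the 4 endothelial markers with a row to 175 to 231 FPKM and 154 to 231 FPKM. Neutrophil markers summed to 1.44 to 4.67 FPKM in NC and 1.51 to 2.24 FPKM in 0 h p.r. over the 4 of 6 genes with a row. The defining receptor genes Csf3r and Cxcr2 were each at 0 in at least 1 library, S100a9 was past both thresholds upward and Mpo downward, and each met the minimum for testing only through the group where it was high. Of the T cell markers 1 of 5 had a row, Cd4. Mast cell markers summed to 8.80 to 17.0 FPKM in NC and 5.96 to 15.2 FPKM in 0 h p.r., though 1 of them, Kit, fell from 4.41 ± 0.598 to 2.18 ± 0.414 FPKM without overlap (-0.88, adjusted p = 0.0187). The Schwann cell markers summed to 273 to 437 FPKM and 168 to 301 FPKM.

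**Figure D4:**
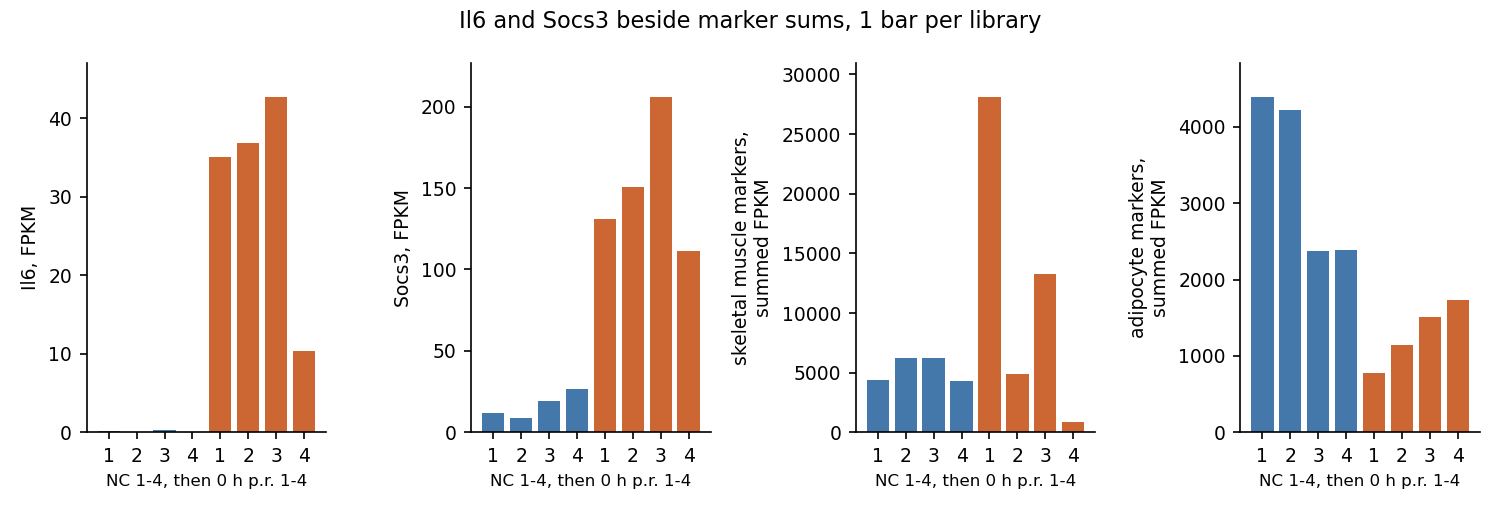
Il6, Socs3 and the summed markers of skeletal muscle and adipocytes, in FPKM on the vertical axes from 0, with 1 bar per library (blue NC, orange 0 h p.r.). Il6 is between 10.4 and 42.8 FPKM in all 4 libraries of 0 h p.r. while the muscle markers there run from 864 to 28138 FPKM, and adipocyte markers are lower in every 0 h p.r. library than in every NC library.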

How the data were processed

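Polyadenylated RNA of 4 NC and 4 0 h p.r. tendons was sequenced in stranded libraries, and samples were grouped by their titles. According to the submitters' processing notes and the methods, the authors aligned reads with HISAT2 2.1.0 to Rnor_6.0, counted them with featureCounts 1.6.3 and normalized with DESeq2 1.30.1. The deposited table holds FPKM per gene and library, in which the library size was not the plain read total: in NC replicate 2 it came to 9550956 for 10660131 recovered reads, and FPKM totals ranged from 554130 to 900138. It also holds the authors' own log2 fold changes and p-values for this comparison, which were not used.

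Whole reads were recovered from the steps between FPKM values for 15589 of 15590 genes (99.99%, tolerance 0.02), with a median of 218 reads per gene and library. The 13863 genes with at least 0.5 FPKM in 4 or more libraries were tested and the other 1727 were not. The values were set to log2(FPKM + 0.5), which understates changes of low genes, and compared with limma 3.58.1 in R 4.3.3 (eBayes with trend, two-sided, Benjamini-Hochberg adjustment over all tested genes), after the fit was tested on simulated data. Thresholds were an adjusted p under 0.05 and a fold of at least 2, as in the methods. Exact permutation tests and motif searches used Python 3.11.15 with numpy 2.4.6 and scipy 1.17.1.

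The members, lists and tests were chosen with earlier results of these data known. Genes named were the members, each listed gene past both thresholds and the 2 tested genes of each list with the largest difference. Socs2, Socs5, Stat5a, Pim1, Il4r, Cntfr, Il11ra1, Osm, Lbp, Kit, Mkx, Comp, Ccnd1 and Bcl2l1 were named after their values were seen. A single gene of the lists was left out and is not reported here. Alternatives comprised other pseudocounts, filters and normalizations, a replicate block, array weights, voom on the recovered reads and leaving out libraries. Promoter sequences are from RefSeq on GRCr8, and no genome of Rnor_6.0 was used here.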

Additional observations from a re-analysis of the deposited data

Results flagged for a closer look

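In 4 of the 56 gene and group pairs examined, 1 library lay far from the other 3 of its group by Dixon's criterion, which chance alone meets in about 1 of 20 pairs. Lifr was at 17.9 FPKM in NC replicate 2 and at 34.0 to 34.7 FPKM in the other NC libraries, and without that library its difference between the groups was past both thresholds. Il6r was at 12.6 FPKM in 0 h p.r. replicate 2 and at 10.3 to 10.4 FPKM in the others. Timp1 was at 109.9 FPKM in 0 h p.r. replicate 1 and at 202 to 215 FPKM in the others. Adam10 was at 37.4 FPKM in NC replicate 4 and at 30.4 to 31.2 FPKM in the others.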

How the results depend on the processing

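Il6, Socs3 and Socs1 were past both thresholds under every alternative run, and the number of members past both ranged from 3 to 5. Osmr was lost after quantile normalization (0.97), with the replicate block (adjusted p = 0.0527) and without NC replicate 1 or 2 or 0 h p.r. replicate 1, 2 or 3. Lifr was gained with array weights (-1.01, adjusted p = 0.00402), without NC replicate 2 and, in a setting chosen after seeing the data, without NC replicate 2 and 0 h p.r. replicate 4 together. Over all genes, 374 were past both thresholds, 195 to 516 when 1 library was left out (fewest without 0 h p.r. replicate 2, most without 0 h p.r. replicate 4), and 793 at an adjusted p under 0.05 alone. Same-numbered libraries did not deviate together (correlations -0.14 to 0.07), no library correlated best with its own number, so the numbers were not taken to pair them, and a fit with the replicate number as a block gave 212. The block also took the adjusted p over 0.05 for Stat3 (0.0933), Socs2 (0.0612), Socs5 (0.0634), Ptpn1 (0.0995) and Ptpn2 (0.107). Socs2 also lost its call after quantile normalization (0.0566) and without NC replicate 2 and 0 h p.r. replicate 4 (0.0656), and Jak2 gained one with array weights (0.0462) and in that same setting (0.0476). Lbp gained one with the block (0.0173), with array weights (0.0418) and without 0 h p.r. replicate 1 (0.0431), and Ccnd1 with array weights, downward (0.0427). Pim1 reached the fold threshold with a pseudocount of 0.1 (1.04), by voom (1.02) and in 5 of the 8 leave-one-out fits, and Socs2 without NC replicate 3 (1.08). Bcl2l1, near 0, ranged from -0.12 to 0.048 when 1 library was left out. Icam1 fell short of the fold threshold after quantile normalization and without NC replicate 2 and 0 h p.r. replicate 4 (0.99 in both). The rise of Il6 was 7.66 by voom on the recovered reads (adjusted p = 0.0167). The cause of these differences was not tested. Lif and Il11 had at most 41 reads in a library, and whether depth limits their tests was not tested.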
